A study of Homo sapiens with 4 samples.

Results

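The heat shock chaperone genes described here are 58 genes for the cytosolic and mitochondrial chaperones, their cochaperones and the heat shock factors HSF1 and HSF2. They were taken by symbol from a fixed list of HSP70, HSP110, HSP90, HSP60, small HSP, DnaJ (HSP40), BAG and cochaperone genes. All 58 were found among the 20286 genes of the deposited tables, HSPB11 under its newer symbol IFT25. Each had a mean of at least 1 CPM (counts scaled to library size) over the 4 libraries and each was tested, so no member was lost to a filter on low values. The list is wider than its name: HSPA13, DNAJB12, DNAJB14 and DNAJC10 encode proteins of the endoplasmic reticulum, DNAJC8 and DNAJC17 nuclear proteins, and HSPB11 a protein of ciliary transport.

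The 4 RNA-seq libraries came from HLE, an established line of human hepatocellular carcinoma. In 2 of them the cells stably carried a vector control, and in the other 2 they stably expressed CYR61, a matrix-associated secreted protein now named CCN1. Both groups shared the parental line and a serum-containing medium, and neither was treated further. Each group was 1 stable population, not a clone, grown in 2 separate cultures, so the p-values below measure the spread between cultures and not between separately made lines.

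Heat shock proteins are molecular chaperones that bind unfolded or partly folded proteins. HSP70 proteins bind and release their clients in an ATP-driven cycle that DnaJ proteins start and that HSP110 and BAG proteins complete as nucleotide exchange factors. HSP90 acts on later folding steps of kinases and receptors together with cochaperones such as STIP1 and AHSA1, and HSP60 with its lid HSP10 folds proteins inside mitochondria. In cells under heat or other stress that unfolds proteins, HSF1 binds inverted repeats of the letters GAA, the heat shock element, upstream of many of these genes and raises their transcription. Many liver cancers carry high levels of these chaperones.

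The libraries held between 16186988 and 21588822 estimated counts. CCN1 itself was at 221 and 218 CPM in the vector libraries and at 8090 and 8620 CPM in the CYR61 libraries, as the labels say. Hepatocyte markers were nearly absent from this line: ALB, APOB and TTR had 0 counts in the 4 libraries, and AFP did not exceed 0.0627 CPM. HNF4A was the highest of the hepatocyte markers, at 3.57 to 5.79 CPM. The epithelial keratins KRT8 (2180 to 3240 CPM) and KRT18 (1050 to 1420 CPM) and the mesenchymal VIM (1500 to 1960 CPM) were abundant. The other epithelial markers, EPCAM (0.319 to 1.36 CPM) and CDH1 (1.04 to 2.61 CPM), were low. The 4 leukocyte markers summed to at most 0.651 CPM and the 4 endothelial markers to at most 2.51 CPM. Among the markers FN1 fell (82.3 and 76.5 CPM against 28.7 and 28.4 CPM) and DCN rose (0.637 and 0.544 CPM against 3.68 and 2.26 CPM), and no other was called. Any part of such markers in the chaperone results was not tested.

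The genes with the firmest rises, HSPA8, HSPA1A, HSPA1B and DNAJA1, are shown first by sequence upstream of their RefSeq transcript starts on GRCh38.p14. The 4 stretches are shown because each holds letters of a heat shock element. They lie at chr11:123062336-123062386 (minus strand), chr6:31815293-31815463 and chr6:31827488-31827734 (plus strand) and chr9:33025023-33025210 (plus strand). Each is read 5′ to 3′ from 250 bases before the start. Each ends just before the first base that lies in an exon of the gene in any GENCODE 29 transcript. The HSPA8 stretch lies within the annotated gene, since other transcripts of HSPA8 start farther upstream, but in none of its exons. Capitals mark matches to GAANNTTC or TTCNNGAA, joined where they overlap.
HSPA8: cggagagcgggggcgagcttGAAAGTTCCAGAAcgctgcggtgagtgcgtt
HSPA1A: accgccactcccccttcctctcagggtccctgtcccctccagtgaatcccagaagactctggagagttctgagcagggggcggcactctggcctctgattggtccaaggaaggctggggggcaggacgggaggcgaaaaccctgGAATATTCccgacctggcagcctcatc
HSPA1B: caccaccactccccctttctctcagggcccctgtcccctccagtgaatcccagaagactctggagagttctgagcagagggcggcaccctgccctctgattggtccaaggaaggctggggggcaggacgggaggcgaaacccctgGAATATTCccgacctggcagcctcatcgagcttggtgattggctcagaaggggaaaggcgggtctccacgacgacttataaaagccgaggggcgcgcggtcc
DNAJA1: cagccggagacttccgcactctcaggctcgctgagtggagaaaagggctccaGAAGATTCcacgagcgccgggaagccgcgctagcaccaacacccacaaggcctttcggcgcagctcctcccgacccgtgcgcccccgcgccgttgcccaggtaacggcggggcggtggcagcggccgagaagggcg

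The motif was searched as GAANNTTC and TTCNNGAA, each of which is its own reverse complement. It was also searched in a longer form, GAANNTTC followed directly by NNGAA, on both strands, whose matches always contain both shorter ones. In HSPA8 the longer form stood at -230 to -218, in the stretch shown, and again at -55 to -43 with the letters TTCTGGAAGGTTC. HSPA1A held a short match at -106 to -99 and HSPA1B at -105 to -98. In DNAJA1 a short match stood at -198 to -191, and the longer form followed the start, at 4 to 16, with the letters GAACTTTCCAGAA. The inducible HSP90 gene HSP90AA1 held the longer form at -88 to -76 (TTCCGGAAGGTTC) and a short match at -68 to -61. Genes that were not called in the test below held the longer form too. Upstream of a start of HSP90AB1 it stood at -165 to -153 and at -112 to -100. In HSPD1 overlapping matches spanned -245 to -228. HSPH1 and HSPE1, which rose, held no match in the bases searched.

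Windows of 300 bases, 250 before and 50 after a start, were available for 54 of the 58 genes; FKBP4, HSF1, HSPA14 and STUB1 had none in the table. A short match was present in 8 of the 12 genes with a window that rose between the groups (66.7%), and in 11 of the 41 that were not called (26.8%). Over all tested genes with a window, 1393 of 10183 (13.7%) held one. The longer form was present in 3 of the 12 and 4 of the 41, against 50 of 10183 (0.49%). Of all 35116 windows of this length in the table, 13.5% held a short match and 0.49% the longer form. By class, a short match was present in 4 of 6 HSP70, 2 of 3 HSP90, 2 of 4 DNAJA, 3 of 7 DNAJB and 1 of 15 DNAJC genes. A match describes letters in this window and not a binding site, and genes with several starts have more windows in which to match.

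The comparison asks how these transcripts differ when CYR61 is stably expressed. Most of the 58 chaperone genes were estimated higher in CYR61-expressing cells, but most did not pass the test. The largest rises were those of the HSP70 genes HSPA8, HSPA1A and HSPA1B and the DnaJ gene DNAJA1. Of the 58 genes, 13 rose and 1, DNAJB2, fell (edgeR quasi-likelihood test, Benjamini-Hochberg adjusted p below 0.05 over all 12698 tested genes). That is 22.4% of the members higher, where 6.39% of all tested genes were called, 1.83% as higher and 4.56% as lower. The other 44 members were not called. Log2 fold changes, called log2 changes here and given as CYR61-expressing minus vector, were above 0 for 47 members and below 0 for 11, with a median of 0.22, against a median of -0.006 over all tested genes. The summed level of the 58 genes was 10760 and 10870 CPM in the vector libraries and 14880 and 13670 CPM in the CYR61 libraries. Abundant genes such as HSP90AB1, HSP90AA1 and HSPA8 weigh most in this sum. In these bulk libraries, more cells of a kind and more RNA per cell cannot be told apart.

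The 2 groups did not overlap for 31 of the 58 members (53.4%), a share close to the 51.5% of all tested genes. By direction, 27 (46.6%) lay higher in both CYR61 libraries, where 23.9% of all tested genes did, and 4 (6.9%) lay lower, where 27.7% did. The count of called members moved with single libraries, and so did the count of called genes over the whole table. Leaving out vector 1 gave 6 higher, leaving out vector 2 gave 8, leaving out CYR61 1 gave 7 and leaving out CYR61 2 gave 16. Within each group the 2 libraries differed along the GC content of the transcripts. With that trend removed from each library, 30 members were called higher and 2 lower, while 27.9% of all tested genes were called, 14.8% higher and 13.2% lower.

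**Figure D1:**
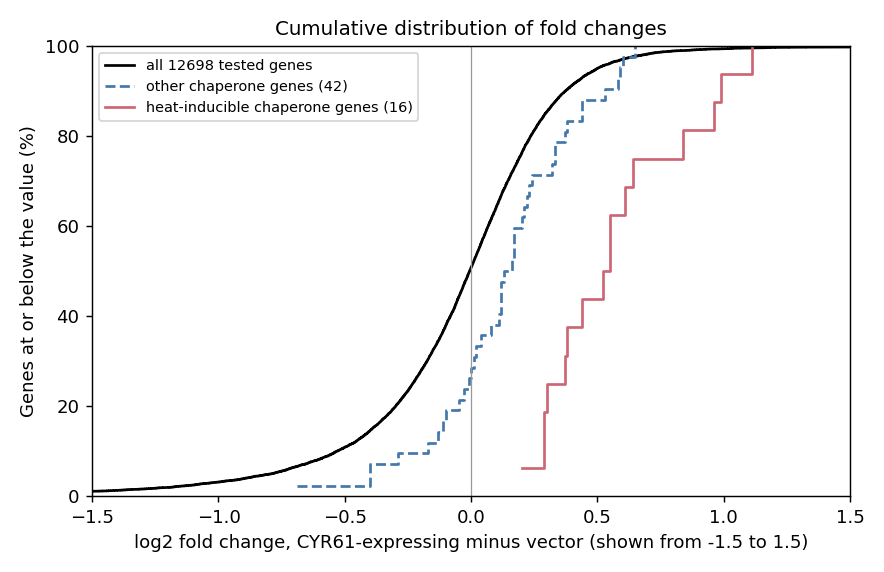
Cumulative share of genes (y axis, percent) at or below a log2 change (x axis, CYR61-expressing minus vector) for all 12698 tested genes, the 16 heat-inducible chaperone genes and the other 42. The curve of the 16 genes starts at 0.20 and has its median at 0.53, that of the 42 has its median at 0.15, and that of all tested genes at -0.006.

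Most of the genes that rose are on a list of heat-inducible members. Of the 16 members listed as heat-inducible from textbook knowledge, 10 rose, where 1.83% of all tested genes did. Those that rose were HSPA1A, HSPA1B, HSPA8, HSP90AA1, HSPH1, HSPE1, DNAJA1, STIP1, AHSA1 and FKBP4. The other 6, HSPA4L, HSPD1, HSPB1, DNAJB1, BAG3 and CHORDC1, were not called. All 16 had log2 changes above 0, from 0.20 (HSPB1) to 1.11 (HSPA8), with a median of 0.53. Among the other 42 members 3 rose and 1 fell, with a median of 0.15 and a range from -0.69 to 0.65. Summed over the 16 genes, the level was 4403 and 4459 CPM in the vector libraries and 7167 and 6385 CPM in the CYR61 libraries. Summed over the other 42 it was 6355 and 6408 CPM against 7709 and 7290 CPM. Groups did not overlap in either sum. The difference between the 2 sets of genes was not tested. The list was set with earlier results of these data known, so these shares cannot show that heat-inducible genes rose more often. It counts HSPA8, an abundant HSP70, which went from 682 and 670 CPM to 1510 and 1400 CPM within the first sum. It leaves out HSPA6, which is outside the members, low at 0.558 to 1.25 CPM and not called (log2 change -0.16).

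**Figure D2:**
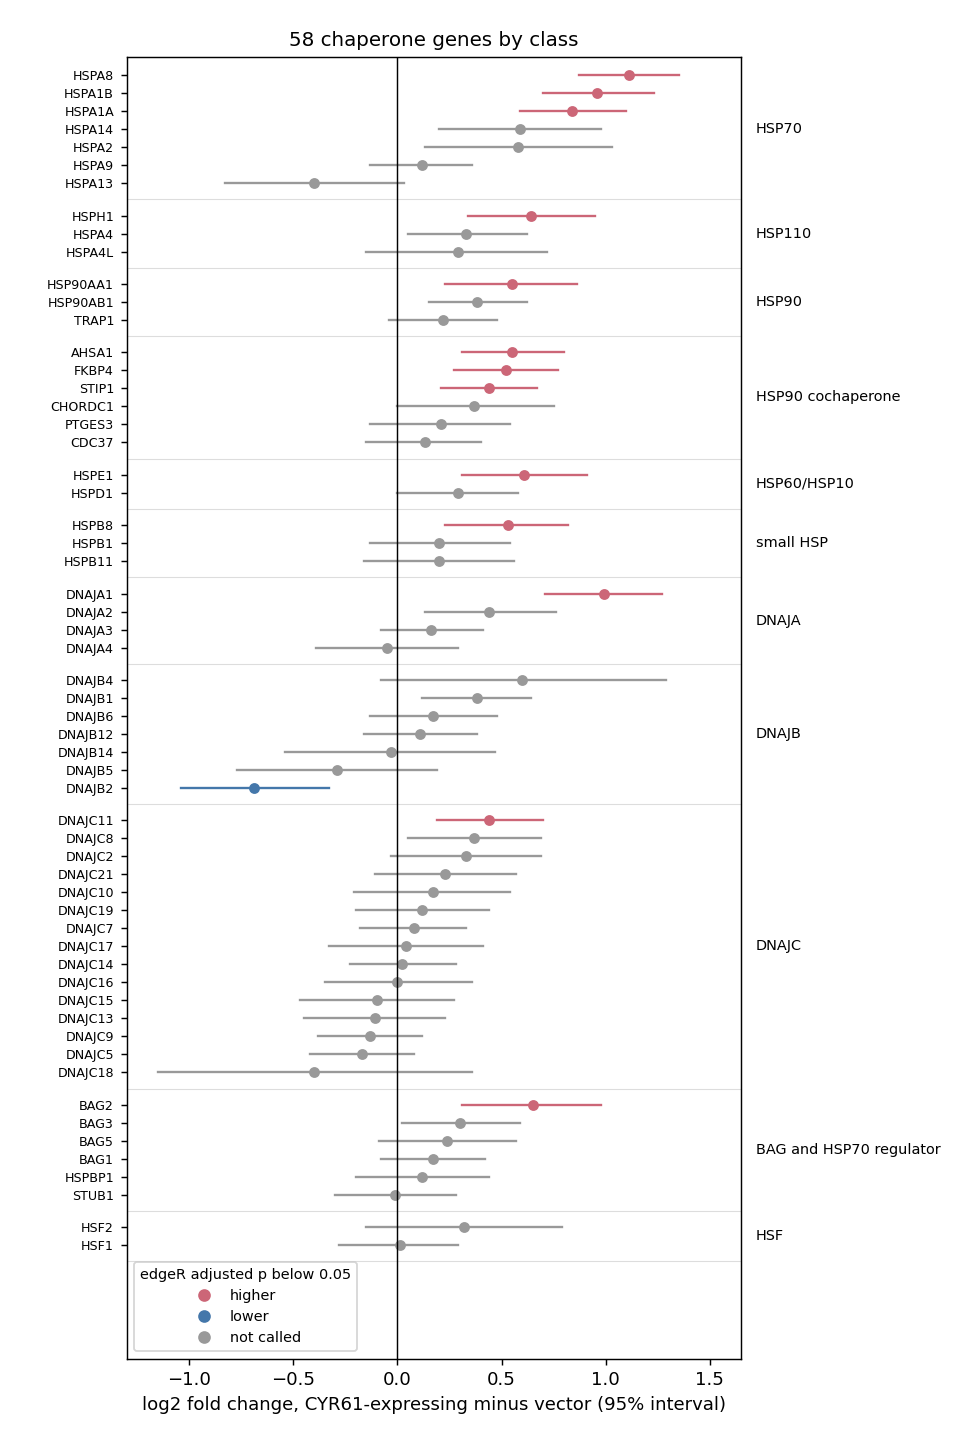
Log2 change of each of the 58 genes (point) with its 95% interval from the edgeR fit (line), grouped by class; red genes were called higher, the blue gene lower and grey genes not called. HSPA8 is highest at 1.11 and DNAJB2 lowest at -0.69, and the DNAJC genes lie around 0.

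HSPA8 encodes HSC70, the abundant HSP70 of the cytosol that folds new proteins and uncoats clathrin vesicles. Its level (ENSG00000109971, hg38 chr11:123057489-123063230, minus strand) was 682 and 670 CPM in the vector libraries and 1510 and 1400 CPM in the CYR61 libraries. Both CYR61 libraries stood far above both vector libraries, and the means were 676 ± 8.11 and 1460 ± 80.5 CPM (SD, n = 2 each). The log2 change was 1.11 (SE 0.11, 95% interval 0.87 to 1.35, edgeR adjusted p = 0.000404), or 2.15-fold. It was the largest change among the 58 genes, and the call held in the 12 alternative fits, with values from 1.06 to 1.16. The annotation lists 17 processed pseudogenes of HSPA8, none of them in the deposited tables, so how reads shared with these copies were counted is unknown.

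HSPA1A and HSPA1B are neighbouring stress-inducible HSP70 genes on chromosome 6 with nearly the same coding sequence. HSPA1A (chr6:31815464-31817946) was at 217 and 189 CPM in the vector libraries and 364 and 364 CPM in the CYR61 libraries. HSPA1B (chr6:31827735-31830255) was at 153 and 135 CPM and at 265 and 297 CPM. Both genes were higher in both CYR61 libraries, with log2 changes of 0.84 (SE 0.12, edgeR adjusted p = 0.0025) and 0.96 (SE 0.12, edgeR adjusted p = 0.0016). Of the 2384 windows of 100 bases in the HSPA1A transcript, 69.9% were present letter for letter in HSPA1B, so the split of reads between the 2 genes is uncertain. Their sum does not depend on that split. It was 370 and 324 CPM in the vector libraries and 629 and 661 CPM in the CYR61 libraries, a log2 ratio of the means of 0.89.

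The other HSP70 genes moved less. HSPA14, a ribosome-associated HSP70, was at 14.1 and 16.4 CPM and at 25.5 and 20.3 CPM (log2 change 0.59, edgeR adjusted p = 0.0799). It was called without CYR61 2 (0.0102). It shares 460 exonic bases with MSANTD7, and the sum of both genes, 39.5 and 45.1 CPM against 56.1 and 44.6 CPM, overlapped between the groups. HSPA2, best known from the testis, was low, at 4.62 and 4.76 CPM and at 7.02 and 7.02 CPM (0.58, edgeR adjusted p = 0.117). HSPA9, the mitochondrial HSP70 or mortalin, was at 714 and 773 CPM in the vector libraries and at 837 and 774 CPM in the CYR61 libraries. Its log2 change was 0.12 with a 95% interval of -0.13 to 0.36, which does not meet that of HSPA8. HSPA13 had the lowest value of the class, at 28.2 and 35.7 CPM and at 28.4 and 20 CPM, with overlapping groups (-0.40, edgeR adjusted p = 0.251). It was called lower without CYR61 1 (-0.67, edgeR adjusted p = 0.0434) and after removal of the GC trend (-0.46, 0.00445).

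Of the 3 HSP110 genes, which encode exchange factors for HSP70, HSPH1 rose. It was at 79.7 and 93.7 CPM in the vector libraries and at 148 and 123 CPM in the CYR61 libraries, a log2 change of 0.64 (SE 0.14, edgeR adjusted p = 0.0232). The call was lost without vector 1 (edgeR adjusted p = 0.144) and without CYR61 1 (0.0673). HSPA4, the highest of the class per kilobase of exon, was at 202 and 225 CPM and at 296 and 243 CPM, without overlap (0.33, edgeR adjusted p = 0.149). HSPA4L was at 29.1 and 42.1 CPM and at 49.5 and 37.5 CPM, with overlapping groups (0.29, edgeR adjusted p = 0.418).

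**Figure D3:**
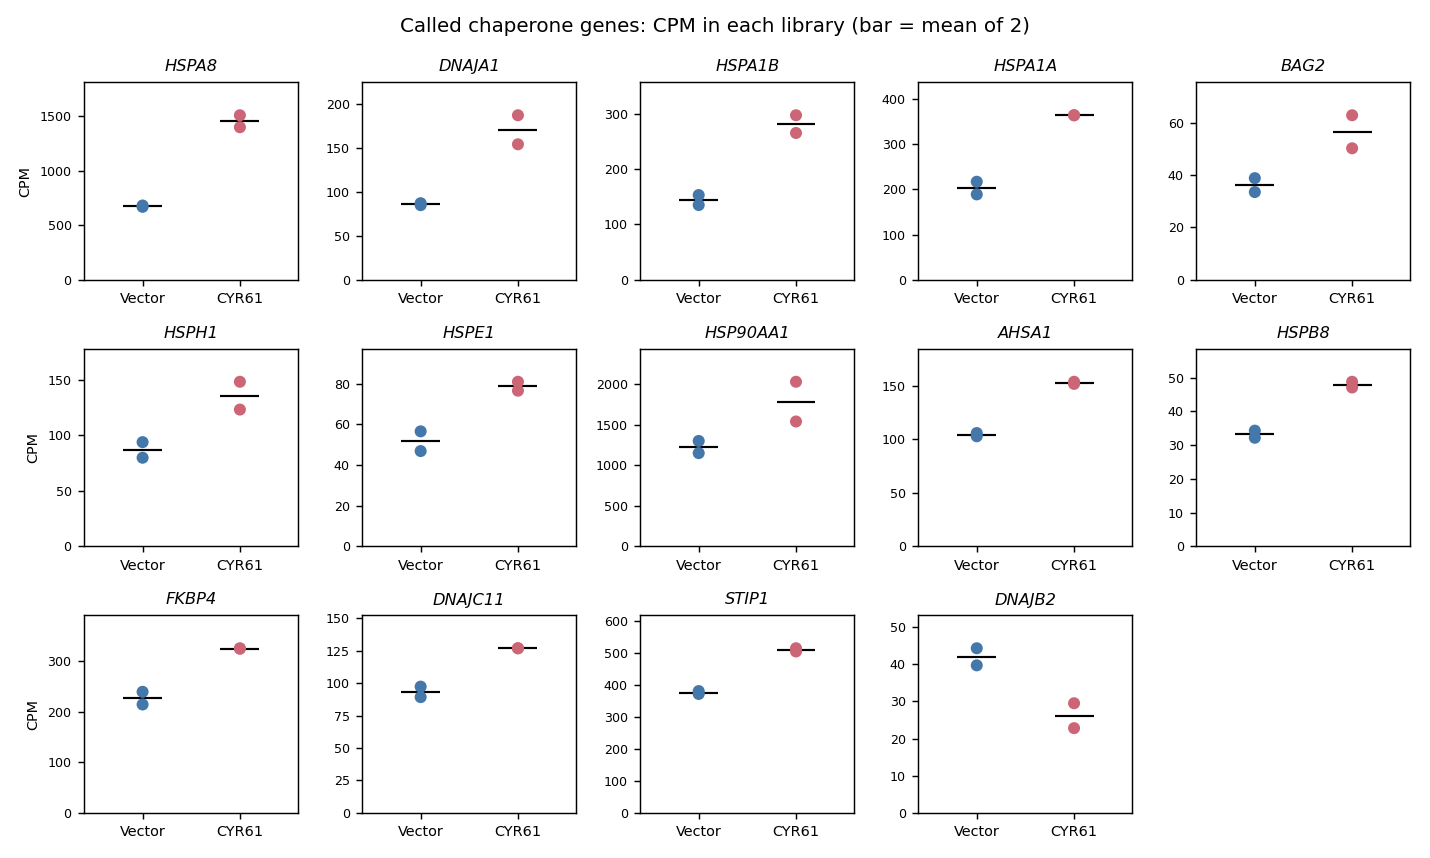
Level in CPM (y axis, from 0) of the 14 called chaperone genes in each library, with 2 vector libraries in blue, 2 CYR61 libraries in red and the group mean as a bar. The groups do not overlap for any of the 14, which were selected by a test on these same libraries. Over all tested genes 51.5% do not overlap. HSPA8 goes from 682 and 670 to 1510 and 1400 CPM, and DNAJB2 is the only gene of the 14 that fell.

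The cytosolic HSP90 genes were the most abundant members per length. Per kilobase of exon, the mean level over the 4 libraries was 853 CPM for HSP90AB1, the constitutive cytosolic form, and 287 CPM for HSP90AA1, the inducible form. HSPB1 (250), HSPA8 (220), HSPD1 (173) and HSPA1A (114) followed on the same scale. HSP90AA1 rose, from 1150 and 1300 CPM in the vector libraries to 2030 and 1540 CPM in the CYR61 libraries. The CYR61 libraries differed from each other by more than the vector libraries did. The log2 change was 0.55 (SE 0.14, edgeR adjusted p = 0.0484), and the call was lost without vector 1 (0.102), without CYR61 1 (0.303) and with a stricter filter of 5 CPM (0.0593). HSP90AB1 was at 2220 and 2190 CPM and at 2980 and 2780 CPM, without overlap, and just missed the threshold (0.38, SE 0.11, edgeR adjusted p = 0.0594). DESeq2 called it (adjusted p = 0.0168), as did edgeR without the filter (0.0083) and after removal of the GC trend (0.00145). TRAP1, the mitochondrial HSP90, was at 547 and 476 CPM and at 566 and 622 CPM (0.22, edgeR adjusted p = 0.305).

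HSP90 cochaperones were higher for 3 of 6 members, STIP1, AHSA1 and FKBP4. AHSA1, which stimulates the ATPase of HSP90, was at 106 and 103 CPM in the vector libraries and 152 and 154 CPM in the CYR61 libraries (log2 change 0.55, SE 0.11, edgeR adjusted p = 0.0167). FKBP4, an immunophilin of steroid receptor complexes, went from 239 and 214 CPM to 325 and 324 CPM (0.52, SE 0.11, edgeR adjusted p = 0.0239). STIP1, or HOP, which links HSP70 to HSP90, went from 381 and 372 CPM to 515 and 505 CPM (0.44, SE 0.10, edgeR adjusted p = 0.036). Replicates of these 3 genes lay close together and the groups were clearly apart. With fewer libraries the test still lost some of the calls. AHSA1 missed the threshold without vector 1 (edgeR adjusted p = 0.096) or vector 2 (0.119), as did FKBP4 without vector 2 (0.21). STIP1 was called in none of the 4 fits that left out a library, with adjusted p from 0.0758 to 0.221.

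The other 3 cochaperones were not called. CHORDC1 was at 41.3 and 50.2 CPM and at 68.2 and 50.2 CPM (log2 change 0.37, edgeR adjusted p = 0.221), with a call without CYR61 2 (0.0262). PTGES3, or p23, was at 253 and 307 CPM and at 368 and 279 CPM (0.21). CDC37, which brings kinases to HSP90, was at 266 and 233 CPM and at 251 and 294 CPM (0.13). Groups overlapped for each of the 3. The CHORDC1 window held the most short matches of all the members' windows, 3 of each kind.

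In mitochondria the HSP10 gene HSPE1 rose. It was at 56.6 and 46.9 CPM in the vector libraries and at 81 and 76.6 CPM in the CYR61 libraries (log2 change 0.61, SE 0.13, edgeR adjusted p = 0.0265), and the call was lost without vector 2 (0.217). Its partner HSPD1, encoding HSP60, was at 619 and 704 CPM and at 898 and 720 CPM (0.29, 95% interval 0.00 to 0.58, edgeR adjusted p = 0.222). The 2 genes lie head to head on opposite strands and share 281 exonic bases, and without strand the reads there cannot be told apart. The annotation also lists 26 pseudogenes of HSPE1 and 17 of HSPD1, and HSPE1 shares exons with the read-through gene HSPE1-MOB4. That gene was at most at 1.25 CPM, and the log2 ratio of the summed means was 0.63.

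Of the 8 mitochondrial members together, 2 rose, HSPE1 and DNAJC11, where 1.83% of all tested genes rose. No other of the 8 had an unadjusted p below 0.05 in edgeR. The median log2 change of the 8 was 0.19, and 7 were above 0. DNAJC11, a DnaJ protein associated with the cristae-organising complex of the inner membrane, was at 97.4 and 89.3 CPM and at 127 and 127 CPM (0.44, SE 0.11, edgeR adjusted p = 0.0494). That call was the least firm of the 14. It was lost in each of the 4 fits that left out a library (adjusted p from 0.0911 to 0.342), with RLE size factors (0.052) and with the stricter filter (0.0522). DNAJC11 shares 1419 exonic bases with THAP3 on the other strand, and THAP3 was at 10.5 to 11.9 CPM in the 4 libraries. DNAJA3, or TID1, was at 170 and 165 CPM and at 185 and 190 CPM (0.16, edgeR adjusted p = 0.403). DNAJC15 was at -0.10 and DNAJC19, of the import motor, at 0.12 on the log2 change scale.

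Among the 26 DnaJ members, whose J domain stimulates the HSP70 ATPase, changes went both ways. DNAJA1 and DNAJC11 rose, DNAJB2 fell, and 23 were not called. DNAJA1, a farnesylated cytosolic partner of HSPA8 (ENSG00000086061, chr9:33025211-33039907), was at 84.9 and 87.1 CPM in the vector libraries and 187 and 154 CPM in the CYR61 libraries. Both CYR61 libraries were above both vector libraries, with a log2 change of 0.99 (SE 0.13, 95% interval 0.71 to 1.27, edgeR adjusted p = 0.00179). The call held in the 12 alternative fits, from 0.86 to 1.12. The related DNAJA2 was at 53.8 and 65.5 CPM and at 87.2 and 75 CPM (0.44, edgeR adjusted p = 0.0956) and was called without CYR61 2 (0.0325). DNAJA4 was at 18.8 and 19.7 CPM and at 18.3 and 18.9 CPM (-0.05).

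DNAJB2 encodes a DnaJ protein best known from neurons, where it passes ubiquitylated clients to the proteasome. It fell from 44.3 and 39.7 CPM in the vector libraries to 22.8 and 29.5 CPM in the CYR61 libraries, without overlap. The log2 change was -0.69 (SE 0.16, edgeR adjusted p = 0.0339), and the call was lost without vector 1 (-0.61, edgeR adjusted p = 0.143) and without CYR61 1 (-0.50, 0.156). DNAJB1, the heat-inducible HSP40, was higher in both CYR61 libraries but not called, at 95.3 and 88.1 CPM and at 123 and 115 CPM (0.38, 95% interval 0.12 to 0.64, edgeR adjusted p = 0.0889). Removal of the GC trend gave a call (0.43, 0.00259). DNAJB4 had the highest value of the class but a wide spread, at 7.38 and 14.3 CPM and at 20.6 and 12.3 CPM (0.60, edgeR adjusted p = 0.277). It was called without vector 2 (1.17, edgeR adjusted p = 0.00193), without CYR61 2 (0.92, 0.00116) and without the filter (0.61, 0.0175). DNAJB6, DNAJB12, DNAJB14 and DNAJB5 had log2 changes of 0.17, 0.11, -0.03 and -0.29.

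The DNAJC genes, a diverse group that share only the J domain, had the class median nearest to 0. Of 15, DNAJC11 was called, and the median log2 change was 0.04, with 10 values above 0 and 5 below. DNAJC5, the cysteine string protein of secretory vesicles, with the highest mean CPM of the class, was at 166 and 163 CPM and at 140 and 152 CPM (-0.17, edgeR adjusted p = 0.395). DNAJC8 was at 79.8 and 93.5 CPM and at 124 and 99.7 CPM (0.37, edgeR adjusted p = 0.15), and DNAJC2, a ribosome-associated partner of HSPA14, at 50.7 and 62.2 CPM and at 81 and 60.8 CPM (0.33, edgeR adjusted p = 0.264). Both were called without CYR61 2 (edgeR adjusted p = 0.0388 and 0.0475). DNAJC18 was the lowest of the class at -0.40, with 2.44 and 5.07 CPM in the vector libraries and 2.93 and 2.82 CPM in the CYR61 libraries. The other DNAJC genes lay between -0.13 (DNAJC9) and 0.23 (DNAJC21).

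Of the BAG genes and other regulators of HSP70, BAG2 rose. BAG2, an exchange factor that inhibits the ubiquitin ligase STUB1, was at 33.5 and 38.8 CPM in the vector libraries and at 62.8 and 50.2 CPM in the CYR61 libraries (log2 change 0.65, SE 0.15, edgeR adjusted p = 0.0343). The call was lost without vector 1 (0.188) and without CYR61 1 (0.139). BAG2 shares 2842 exonic bases with RAB23 on the other strand, which was at 8.39 to 12.2 CPM and was not called. BAG3, a heat-inducible partner of HSPB8 in autophagy, was at 39 and 38.6 CPM and at 48.7 and 47.2 CPM, without overlap (0.30, 95% interval 0.02 to 0.59, edgeR adjusted p = 0.187). BAG1 and BAG5 had log2 changes of 0.17 and 0.24, HSPBP1 of 0.12. STUB1, the ligase CHIP that marks chaperone-bound clients for degradation, was at 191 and 164 CPM and at 160 and 193 CPM (-0.01, 95% interval -0.30 to 0.28).

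Among the small HSP genes HSPB8 rose, from 32.2 and 34.3 CPM to 47.1 and 48.8 CPM (log2 change 0.53, SE 0.13, edgeR adjusted p = 0.043). Both pairs of replicates were close, but none of the 4 fits on 3 libraries called it, with edgeR adjusted p from 0.0641 to 0.305. HSPB1, or HSP27, which holds unfolded proteins in a soluble state, was at 433 and 327 CPM in the vector libraries and at 400 and 477 CPM in the CYR61 libraries, with overlapping groups (0.20, edgeR adjusted p = 0.451). HSPB11 was at 14.8 and 16.8 CPM and at 18.9 and 17.5 CPM (0.20).

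Neither heat shock factor transcript was called by edgeR or DESeq2, and 0 of the 2 had an unadjusted p below 0.05. HSF1, the factor that responds to unfolded proteins and is known to be controlled mainly after translation, was at 136 and 119 CPM in the vector libraries and at 118 and 138 CPM in the CYR61 libraries. The groups overlapped fully, and the log2 change was 0.01 (95% interval -0.28 to 0.29, edgeR adjusted p = 0.984). HSF2 was at 7.96 and 11.7 CPM and at 13.1 and 11.5 CPM (0.32, 95% interval -0.15 to 0.79, edgeR adjusted p = 0.404). RNA counts do not measure the activity of either protein.

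**Figure D4:**
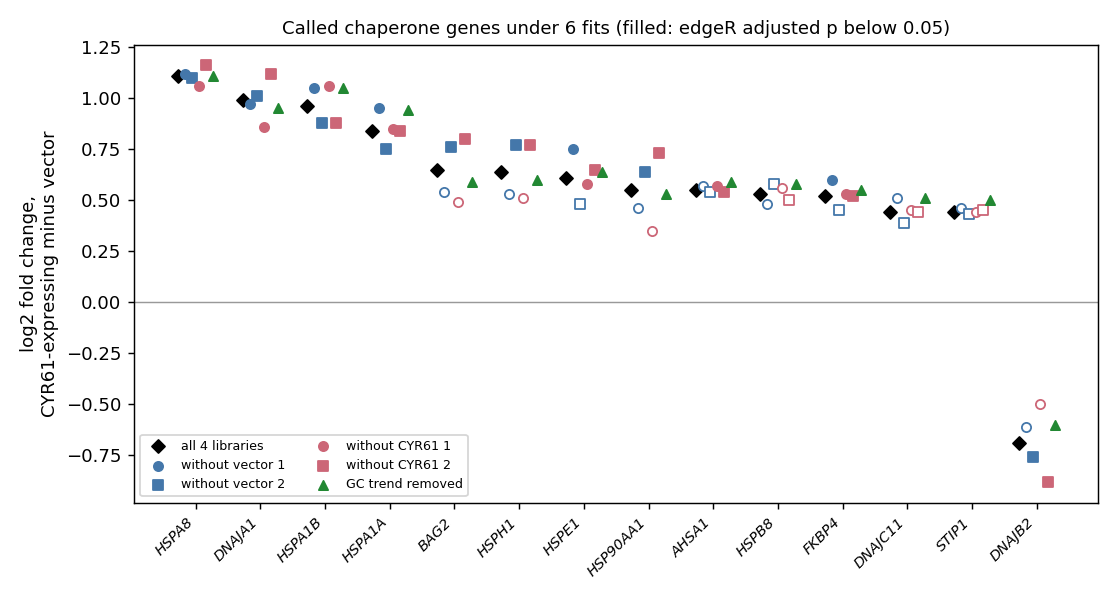
Log2 change (y axis, CYR61-expressing minus vector) of the 14 called genes with all 4 libraries, without each library in turn and with the GC trend removed. Filled symbols have an edgeR adjusted p below 0.05. The groups of the 14 do not overlap, so leaving out 1 library could hardly turn a sign. HSPA8, DNAJA1, HSPA1B and HSPA1A are filled throughout, HSPB8, DNAJC11 and STIP1 are open without any 1 library, and no gene crosses 0.

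Every one of the 14 called genes kept its direction in the 12 alternative fits. HSPA8, HSPA1A, HSPA1B and DNAJA1 were called in each of them, with adjusted p of at most 0.00734. The GC content of each gene's longest transcript ranged from 37% to 59.7% among the 13 that rose, with a median of 51.1%. It ranged from 33.1% to 65% among the 44 not called, with a median of 45.15%. With the GC trend removed the 14 kept their calls, and the members called in addition included HSP90AB1, HSPA4, HSPD1, HSPB1, TRAP1, DNAJA2, DNAJB1, BAG3 and CHORDC1, with log2 changes from 0.27 to 0.43. Also called higher were HSPA2 (0.56), HSPA14 (0.56), DNAJB4 (0.55), DNAJC8 (0.35), DNAJC2 (0.30), HSPBP1 (0.23), CDC37 (0.22) and DNAJA3 (0.20). HSPA13 was called lower (-0.46).

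Of other chaperone genes, in 5 lists outside the 58, few were called with all 4 libraries and no GC correction. Few were called over all tested genes as well, 1.83% as higher and 4.56% as lower, so low counts do not set these lists apart. Of 24 further cochaperones 1 rose, NUDC, from 233 and 215 CPM to 298 and 306 CPM (log2 change 0.43, edgeR adjusted p = 0.0456). That call was lost without any 1 of the libraries (0.105 to 0.321) and with RLE size factors (0.0512). Of 17 tested DnaJ genes 0 were called by edgeR or DESeq2, with 2 at an unadjusted p below 0.05; the smallest p was that of DNAJC1, of the endoplasmic reticulum membrane, at -0.41 (unadjusted p = 0.0316, adjusted 0.168). Of 9 tested HSP70 and small HSP genes 0 were called by either tool, with 2 at an unadjusted p below 0.05. The share of all tested genes at such a p was not counted, so neither count sets its list apart. HYOU1, of the endoplasmic reticulum, came closest, at 378 and 369 CPM and at 282 and 296 CPM (-0.37, edgeR adjusted p = 0.0678), and was called without the filter (0.0323). HSPA5, its major HSP70, was at -0.15. HSPA6, the HSP70 gene that is nearly silent without stress, stayed low at 0.558 to 1.25 CPM in the 4 libraries (-0.16).

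In the list of mitochondrial import and quality control, 1 of 15 genes rose and 1 fell. TIMM23, the channel of the inner membrane, went from 67.6 and 77.1 CPM to 122 and 103 CPM (log2 change 0.64, edgeR adjusted p = 0.0202). It has a near-identical copy, TIMM23B, and is uncertain, and the call was lost without vector 1 (0.138) and without CYR61 1 (0.0618). LONP1, the matrix protease, fell from 510 and 437 CPM to 305 and 353 CPM (-0.53, edgeR adjusted p = 0.0356). That call was lost without vector 1 (0.243), without CYR61 1 (0.197) and with RLE size factors (0.0521). Among 15 further targets and partners of heat shock factors VCP, the segregase that extracts ubiquitylated proteins, rose from 318 and 283 CPM to 415 and 445 CPM (0.52, edgeR adjusted p = 0.0253). The call was lost without vector 2 (0.208) and without CYR61 2 (0.0644). The medians of the 5 lists were between -0.10 and 0.15 on the log2 scale. Removal of the GC trend, which raised the count for the members and for all genes, raised it for these lists too. Over all tested genes 27.9% were then called, 14.8% higher and 13.2% lower. It gave 6 of 15 genes higher and 2 lower for mitochondrial import and quality control, among them PHB1 (0.36, edgeR adjusted p = 0.00328) and AFG3L2 (0.36, 0.00358). Of the cochaperones 5 of 24 were then higher and 1 lower, of the heat shock factor targets and partners 6 of 15 higher, of the DnaJ genes 2 of 17 higher and 2 lower, and of the HSP70 and small HSP genes 1 of 9 lower.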

How the data were processed

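For each library the authors deposited estimated counts for 20286 Ensembl genes; 11.2% to 12% of the values were not whole. Per the submitters' processing notes the build was hg38 and the tools TopHat2 2.1.1, Cufflinks 2.2.1 and Cuffdiff 1.3.0. Counting program, annotation and strandedness: not given in the sources used here. Expected counts were rounded and genes kept by filterByExpr (12698). Libraries were TMM-scaled, and groups were compared with edgeR 4.0.16 (glmQLFit, glmQLFTest, R 4.3.3) with Benjamini-Hochberg adjustment over all tested genes. CPM use TMM-scaled library sizes. Each SE was derived from the fold change and its F statistic. Symbols were known for 20228 genes, positions (GENCODE 29, GRCh38) for 20212. Promoter windows are from RefSeq (GRCh38.p14); the shown stretches were trimmed to bases outside the gene's GENCODE exons. The GC trend was a natural spline with 5 degrees of freedom per library, fitted on genes of at least 5 CPM.

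Members and lists were chosen with earlier results of these data known, so no set test was made. Named genes were all called members, the highest, lowest and most abundant of each class, a fixed set of main chaperone genes and, per further list, up to 4 called genes or the 1 of smallest p; further members were named with their values known. Alternatives were DESeq2 1.42.0, RLE size factors, no filter, at least 5 CPM in 2 libraries, a replicate block, the GC trend removed without and with that block, and each library left out. Counts were simulated for this comparison (12588 genes), with 50 genes changed at each fold and without the GC trend seen within the groups. Recovery was 58% at 1.5-fold, 94% at 2-fold and 100% at 4-fold and at 8-fold, and 18 calls were false.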

Additional observations from a re-analysis of the deposited data

How the results depend on the processing

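Over the 12 alternatives the median log2 fold change of the heat-inducible members stayed between 0.47 and 0.56. That of all members was 0.22, and 0.19 to 0.38 with 1 library left out (0.38 without CYR61 2). All genes called numbered 811, with 1677 without a filter, 3549 with the GC trend removed and 481 to 1331 with 1 library left out. Members called higher were 13, with 6 to 16 when 1 library was left out and 30 with the GC trend removed; members called lower were 1, with 0 to 1 and 2. Whether the replicate numbers pair the samples is not known. The deviations of same-numbered libraries correlated at -0.71 over 10378 genes, but a GC difference between libraries could hide a pairing, so this value cannot settle it. With the replicate block 391 genes, 4 members higher (HSPA8, HSPA1A, HSPA1B and DNAJA1) and 0 lower were called. With the block and the GC trend removed together these counts were 2045, 20 and 2. A block with crossed numbers, added after the data were seen, called 5624 genes, 38 members higher and 4 lower. The deviations follow GC content, with Spearman's rho across 10364 genes of -0.73 for vector 2 minus vector 1, -0.78 for CYR61 1 minus CYR61 2 and -0.16 for the group difference; genes are not independent replicates. In at least 1 alternative 11 of the 58 members turned sign, none of them called with all 4 libraries. Among the named genes this was so for STUB1 (0.01 with DESeq2 and with RLE size factors, 0.10 with the GC trend removed, without and with the block), HSF1 (-0.01 with the stricter filter) and, with 1 library left out, STUB1 (-0.15 to 0.13), HSF1 (-0.11 to 0.13), DNAJC18 (-0.82 to 0.24) and HSPA6 (-0.80 to 0.36). The other 8 were DNAJB14, DNAJC10, DNAJC13, DNAJC15, DNAJC16, DNAJC17, DNAJC19 and HSPBP1, of which DNAJC10 (0.0222 with the crossed block) and HSPBP1 (0.0324 with the GC trend removed) had an edgeR adjusted p below 0.05 in 1 alternative each, with the sign unchanged there. The cause of these shifts was not tested. With 2 libraries a group, members near 1.5-fold are often missed, as in the simulated counts.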

Other observations

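Ratios of CPM between members within a library, not corrected for gene length, do not depend on the scaling of the libraries. These pairs were chosen after their values were seen, and no test was made of them. The level of HSPA8 over that of the mitochondrial HSPA9 was 0.955 and 0.867 in the vector libraries and 1.81 in each CYR61 library. DNAJA1 over DNAJA2 was 1.58 and 1.33 against 2.15 and 2.06, and DNAJB1 over DNAJB2 was 2.15 and 2.22 against 5.41 and 3.88. The groups did not overlap for these 3 ratios. HSP90AA1 over HSP90AB1 was 0.518 and 0.591 against 0.681 and 0.555, so those groups overlapped, and HSPD1 over HSPE1, at 10.9 and 15 against 11.1 and 9.41, overlapped as well. HSPA1A over HSPA1B was 1.42 and 1.40 against 1.37 and 1.22, within the limits of reads shared between the 2 genes.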
